A study of Mus musculus with 48 samples.

Results

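The kidneys described here are those of sham-operated C57BL/6 (B6) mice, and the comparison is the kidneys taken 2 days after the sham operation against those taken 28 and 53 days after it, gene by gene. The members were chosen from the labels of strain, operation and day alone, and they number 12 of the 48 arrays of the study: 4 at day 2, 4 at day 28 and 4 at day 53. The study set C57BL/6 mice, which do not readily develop kidney lesions, beside lesion-prone FVB mice, each after subtotal nephrectomy or a sham operation, on whole-kidney RNA hybridised to Affymetrix arrays. All mice were operated on at 9 weeks of age, so the B6 sham kidneys came from mice of about 9.29, 13 and 16.6 weeks at days 2, 28 and 53. The 12 FVB sham arrays, again 4 at each day, are used only to set the same comparison beside B6. No allele, transgene or drug is named for any of these groups, all of them had surgery, and no kidney without an operation is used here. Time since the operation and age differ together between the days and cannot be told apart, and the same holds for any processing of arrays by day, since the labels give no hybridisation batch.

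A sham operation opens the animal and handles the kidney without removing tissue, so early tissue samples carry the response to anaesthesia, incision and handling. In the acute phase response, cytokines of the interleukin-6 and interleukin-1 families induce secreted proteins such as serum amyloid A and haptoglobin, while chemokines draw monocytes from blood into tissue, where they become macrophages. The proximal tubule, which makes up much of the kidney cortex, lives mainly on fatty acid oxidation, a programme under the nuclear receptor PPAR alpha, and the young adult kidney still grows and changes its metabolic gene expression.

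Levels are given as the deposited log2 values, and a fold change is the difference of mean log2 values, day 2 minus the mean of days 28 and 53, with its standard error (SE). A gene is said to have risen or fallen only where its two-sided limma test had a Benjamini-Hochberg adjusted p under 0.05 over the 12650 genes tested. Array medians ran between 3.168 and 3.235 log2 units, and 32.1% of the sham values lay at the shared lowest value of 2.1979, so a gene near it has only an upper bound. The 3' to 5' probe difference of Gapdh, a measure of RNA degradation, averaged 0.139 ± 0.045 at day 2 and 0.145 ± 0.075 at the later days (SD, n = 4 and 8), with an exact permutation p of 0.895. The BioB spike-in averaged 9.15 ± 0.22 at day 2 and 8.87 ± 0.19 later, with an exact permutation p of 0.0465 (0.279 after adjustment over 6 measures of array quality). Probe sets for Xist reached 13.4 on the B6 sham arrays. No Y-linked probe set rose above 2.221, under the filter value, on any B6 sham array. All B6 sham animals were therefore of 1 sex by this check, which did not cover the FVB sham arrays.

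Markers of tissue outside the kidney came first in a check of the labelled tissue. Adipoq, the fat cell hormone adiponectin, stood at 9.48, 10.39, 9.68 and 9.79 log2 units in the day 2 kidneys, at 3.11, 4.83, 8.01 and 7.24 at day 28, and at 3.65, 2.90, 2.72 and 3.57 at day 53. Ucp1, the uncoupling protein of brown fat, was at 9.09, 9.80, 7.90 and 6.82 at day 2, at 2.41, 2.66, 8.97 and 7.27 at day 28, and at 2.41, 2.64, 2.33 and 2.41 at day 53. All 4 day 2 kidneys and the day 28 kidneys of mice 5 and 6 thus held clear fat transcripts, and the other 6 kidneys had little. Of 8 measured white fat markers, 4 rose at day 2 (Adipoq, Retn, Fabp4 and Cidec) with a list median of 2.25. Of 6 brown fat markers 1 rose (Ucp1), with a median of 1.63, and of all genes 1.34% rose. The summed white fat level ran between 15.1 and 15.4 at day 2, 14.2 and 14.7 at day 28, and 14.0 and 14.5 at day 53. The call of Adipoq (5.33, SE 1.21, adjusted p 0.0223) was lost without any one of the day 2 kidneys of mice 1, 2, 4 and 5, at adjusted p values of 0.0537, 0.0708, 0.0557 and 0.0756. The white fat count was 0 without day 2 mouse 1 or 2, 1 without day 2 mouse 4 or 5, and 2 without day 53 mouse 5. The gene groups below that rose or fell, and most genes named in them, are also given from a fit with a fat marker level, the mean of Adipoq, Ucp1, Cidea and Cidec on each array, as a covariate. That fit used the 24 sham arrays of both strains, with the same slope for all of them. The strain comparison and the single-day contrasts are given from the fit without the covariate, unless said. Single kidneys held other tissue: Star, an adrenal marker, was at 8.31 in day 2 mouse 4, Prss2, a pancreatic trypsinogen, at 8.54 in day 28 mouse 1, and Apoa1, a liver apolipoprotein, at 4.38 in day 53 mouse 3.

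At day 2 the B6 sham kidneys differed from the later ones in 288 of 12650 genes (2.28% of genes), 170 higher (1.34%) and 118 lower (0.933%). The highest genes without overlap of the days were Saa3, Adipoq, Hp, F13a1, Ccl6, Ly6f, Ccl9, Ccl8, Pf4, Postn, Retn and Wfdc17, and the lowest were Fabp1, Azgp1, Aldh1a1, Hsd17b2, Acot1, Cyp2d12, Zfp36, Ccn2, Dusp1, Ier3, Mttp and Vnn1. Of these, Adipoq, Ccl9, Postn, Retn, Wfdc17, Aldh1a1, Hsd17b2, Cyp2d12, Zfp36, Dusp1 and Mttp lost their call without at least 1 kidney. The rises were the larger changes: 48 of the 170 exceeded 2-fold with a median of 0.66 on the log2 scale, against 6 of the 118 falls with a median of -0.39. The median over all genes tested was -0.0088, and 2005 genes (15.8%) had an unadjusted p under 0.05. In 100 of the higher and 70 of the lower genes the 4 day 2 values did not overlap the 8 later ones, which was so for 1.66% of all genes upwards and 1.06% downwards. The first principal component, with 28.4% of the variance, placed the day 2 kidneys at 17.7 to 22.7 and all later kidneys at -16.0 to -3.3. The size of the response depended on which kidneys were in the fit: 173, 164, 138 and 92 genes were called without day 2 mouse 1, 2, 4 or 5, 165 without day 53 mouse 5, and 445 without day 53 mouse 1. With the fat marker covariate 127 genes were called, 23 higher and 104 lower, and 65 of the 288 were among them.

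Promoter windows of 7 called genes were searched for elements known from acute phase and cell cycle genes, and those of 4 genes that held the searched C/EBP or both cell cycle elements are shown. Each runs 5' to 3' on the gene's strand, 250 bases before the start to 50 after it, from RefSeq on build GRCm38.p6. Capitals in the acute phase promoters mark the C/EBP element TTGCNNAA on either strand, found in 10.8% of 32851 promoters, and capitals in the cell cycle promoters mark CCAAT (37.4%) or the cell cycle element TTTGAA (17.9%) on either strand. A match is only these letters. The Saa3 window is chr7:46715627-46715926, minus strand, and that of Lcn2 is chr2:32387690-32387989, minus strand. The Mki67 window is chr7:135716330-135716629 and the Cdk1 window chr10:69352863-69353162, both minus strand.
Saa3: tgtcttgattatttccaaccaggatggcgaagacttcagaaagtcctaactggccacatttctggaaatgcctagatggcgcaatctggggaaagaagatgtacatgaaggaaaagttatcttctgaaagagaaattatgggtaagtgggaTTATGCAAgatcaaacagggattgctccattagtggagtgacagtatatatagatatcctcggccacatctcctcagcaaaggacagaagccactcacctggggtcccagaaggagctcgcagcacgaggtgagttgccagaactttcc
Lcn2: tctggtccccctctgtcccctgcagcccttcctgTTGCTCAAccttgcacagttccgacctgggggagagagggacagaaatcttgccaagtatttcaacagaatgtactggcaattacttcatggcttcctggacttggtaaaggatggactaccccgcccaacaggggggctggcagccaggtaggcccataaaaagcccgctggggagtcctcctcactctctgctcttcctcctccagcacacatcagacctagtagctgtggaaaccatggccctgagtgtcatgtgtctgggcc
Mki67: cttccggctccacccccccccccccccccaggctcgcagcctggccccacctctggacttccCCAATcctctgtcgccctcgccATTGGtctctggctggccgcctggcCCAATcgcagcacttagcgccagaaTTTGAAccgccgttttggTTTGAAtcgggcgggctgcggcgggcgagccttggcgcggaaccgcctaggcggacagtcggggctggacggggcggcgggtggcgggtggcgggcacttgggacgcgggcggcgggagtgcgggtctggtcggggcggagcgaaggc
Cdk1: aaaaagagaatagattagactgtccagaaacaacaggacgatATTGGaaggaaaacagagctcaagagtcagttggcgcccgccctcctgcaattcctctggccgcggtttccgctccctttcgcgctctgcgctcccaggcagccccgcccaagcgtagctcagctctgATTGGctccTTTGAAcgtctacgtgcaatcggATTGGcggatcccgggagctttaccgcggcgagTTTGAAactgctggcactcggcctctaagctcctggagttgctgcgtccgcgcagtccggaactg
The Saa3 and Lcn2 windows each held 1 C/EBP match and no match to the STAT element TTCNNNGAA, which 8.3% of promoters held. The Mki67 and Cdk1 windows each held 3 CCAAT and 2 TTTGAA matches. Of the 3 windows searched and not shown, Socs3 held no C/EBP and 1 STAT match, Rrm2 held 1 CCAAT and no TTTGAA match, and Bub1 held 2 CCAAT and no TTTGAA match.

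A few acute phase genes rose steeply, and Saa3 had the largest rise of the 170 higher genes. Of 18 measured acute phase and interleukin-6 genes 4 rose (Saa3, Hp, Lcn2 and Socs3), against 1.34% of all genes. None fell, and the list median was 0.26. Saa3, a serum amyloid A made in inflamed tissue and by macrophages and fat cells, stood at 10.40, 8.72, 9.46 and 9.78 log2 units at day 2, at 3.54, 3.89, 3.97 and 3.54 at day 28, and at 3.41, 3.54, 3.54 and 4.03 at day 53. Every day 2 kidney lay more than 4 log2 units above every later one, and the mean difference was 5.91 (SE 0.61, adjusted p 2.72e-05). Hp, haptoglobin, which binds free haemoglobin, was at 6.73, 7.44, 7.26 and 7.05 at day 2, 2.68, 2.35, 3.72 and 3.24 at day 28, and 3.04, 2.50, 2.50 and 2.50 at day 53, again without overlap, a difference of 4.31 (SE 0.86, adjusted p 0.0115). Lcn2, the iron-carrier-binding protein NGAL that injured tubules release, was at 6.33, 5.55, 5.32 and 6.14 at day 2, 5.79, 5.25, 4.17 and 4.45 at day 28, and 4.84, 4.17, 4.45 and 4.68 at day 53. The day 28 kidney of mouse 1 reached the day 2 range, and the difference was 1.11 (SE 0.25, adjusted p 0.0197). That call was lost without day 2 mouse 1 (adjusted p 0.0903) or mouse 5 (0.092). Socs3, the feedback inhibitor of interleukin-6 signalling, differed by 0.78 (SE 0.19, adjusted p 0.0337) and lost its call without any one of 8 kidneys, with adjusted p values up to 0.107, and differed by 0.95 with the fat marker covariate (adjusted p 0.0715). The list count was 2 without day 2 mouse 1 or mouse 5, and also without the 3 kidneys with adrenal, pancreas or liver transcripts.

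In the day 28 kidneys of mice 5 and 6, which held fat transcripts, Saa3 was 3.97 and 3.54, within the 3.41 to 4.03 of the other later kidneys, and Hp was 3.72 and 3.24, the highest later values. Adipoq in these kidneys, at 8.01 and 7.24, was below its 9.48 to 10.39 at day 2. With the fat marker covariate Saa3 rose by 5.07 (adjusted p 0.00537) and Lcn2 by 1.46 (adjusted p 0.0316). In that fit Hp differed by 2.10 with an adjusted p of 0.242. These values are drawn in the plot of fat marker level by array, and the part of fat tissue in the day 2 levels was otherwise not tested. Without the 3 kidneys with adrenal, pancreas or liver transcripts Saa3 differed by 5.90 (adjusted p 0.00216) and Hp by 4.19 (adjusted p 0.0805).

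**Figure D1:**
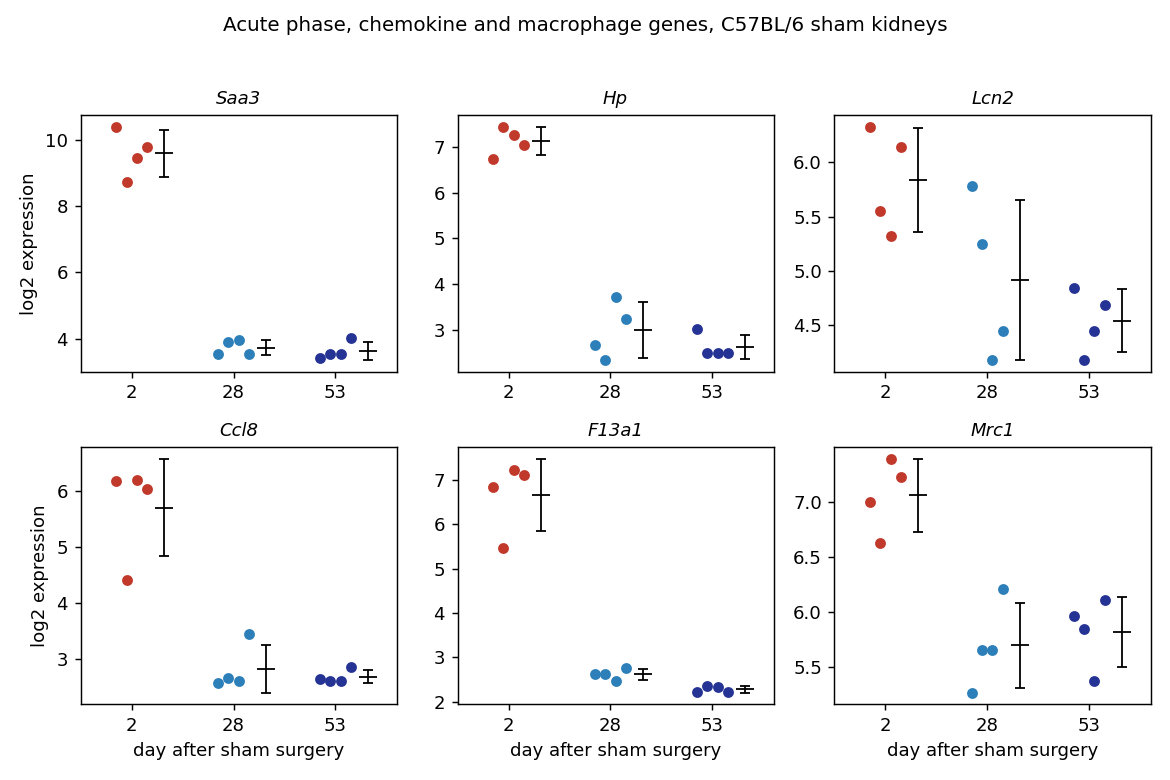
Log2 expression of 6 genes (vertical axes) on each B6 sham array by day after surgery (horizontal axes). Points are arrays and bars give the mean ± SD of 4 arrays. Saa3 at day 2 lies between 8.72 and 10.40, above all later arrays, while Lcn2 at day 28 reaches 5.79.

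Genes of monocytes and macrophages were higher at day 2. In bulk RNA more cells of a type and more RNA per cell cannot be told apart, so these are levels in whole-kidney RNA. Of 23 measured monocyte and macrophage genes 5 rose (Mrc1, Lyz1, Lyz2, Ccr2 and Tyrobp), against 1.34% of all genes. None fell, and the list median was 0.75. Mrc1, the mannose receptor of tissue macrophages, was at 6.99, 6.62, 7.39 and 7.23 at day 2, 5.27, 5.66, 5.66 and 6.21 at day 28, and 5.96, 5.84, 5.37 and 6.11 at day 53. The groups did not overlap, and the difference was 1.30 (SE 0.24, adjusted p 0.00716). F13a1, the A subunit of coagulation factor XIII, which macrophages express, was at 6.85, 5.47, 7.22 and 7.11 at day 2, 2.63, 2.63, 2.46 and 2.76 at day 28, and 2.22, 2.36, 2.34 and 2.22 at day 53. All later values were close to the lowest value of the arrays, and the difference was 4.21 (SE 0.73, adjusted p 0.00475).

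Of the 12 highest genes, 3 are chemokines of the Ccl family, Ccl6, Ccl8 and Ccl9. Ccl8, a monocyte chemoattractant, was at 6.18, 4.41, 6.21 and 6.03 at day 2, 2.57, 2.67, 2.61 and 3.45 at day 28, and 2.65, 2.61, 2.61 and 2.86 at day 53, a difference of 2.96 (SE 0.46, adjusted p 0.00219). Ccl6, a chemokine of mouse myeloid cells, averaged 9.23 ± 0.22 at day 2 and 6.17 ± 0.37 later (SD, n = 4 and 8), a difference of 3.07 with an adjusted p of 0.00509. Ccl9, another myeloid chemokine, differed by 2.99 (SE 0.64, adjusted p 0.0171), and lost its call without day 2 mouse 4 (adjusted p 0.0513) or mouse 5 (0.0643). The chemokine gene Cxcl9, induced by interferon gamma, differed by -0.45 with an adjusted p of 0.611. Pf4, platelet factor 4, which platelets and some macrophages carry, averaged 6.95 ± 0.21 at day 2 and 4.26 ± 0.25 later, a difference of 2.69 with an adjusted p of 0.000595. Ly6f, a Ly6 family surface protein, was at 7.34 ± 1.00 at day 2 and 4.29 ± 0.99 later, a difference of 3.05 (adjusted p 0.00269).

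Other immune lists had no called gene. None of the measured genes passed the limma test among 2 neutrophil, 6 B and plasma cell, 7 T and NK cell, 9 MHC class II, 20 interferon and 11 complement genes, where 2, 2, 1, 0, 1 and 8 had an unadjusted p under 0.05, against 15.8% of all genes. The list medians were 1.48 for the neutrophil genes, 0.45 for complement, 0.11 for interferon and -0.0015 for MHC class II. With the fat marker covariate none of the 23 macrophage genes passed limma's adjusted test, with a list median of 0.49, while Pf4 (1.97, adjusted p 0.0393) and Ly6f (2.91, adjusted p 0.041) did. In that fit Ccl8 differed by 2.10 (adjusted p 0.0715), Ccl6 by 1.89 (adjusted p 0.133), F13a1 by 2.89 (adjusted p 0.111) and Mrc1 by 0.96 (adjusted p 0.119). The macrophage count was 2, 3, 1 and 1 without day 2 mouse 1, 2, 4 or 5, and 9 without day 53 mouse 1. It was 0 without the 3 kidneys with adrenal, pancreas or liver transcripts.

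Collagens and other matrix genes were among those that rose. Of 29 measured extracellular matrix genes, 12 rose, against 1.34% of all genes, and none fell, with a list median of 0.63. The risers were Col1a1, Col1a2, Col3a1, Col4a1, Col5a1, Col6a2, Col6a3, Sparc, Postn, Lum, Dcn and Timp1. Col3a1, a fibrillar collagen of soft tissue, was at 12.03, 11.81, 12.33 and 12.35 at day 2, 10.58, 10.48, 9.78 and 10.95 at day 28, and 10.72, 9.87, 9.89 and 9.55 at day 53. The days did not overlap, and the difference was 1.90 (SE 0.30, adjusted p 0.00267). Col1a1, the main chain of type I collagen, was at 7.13, 7.26, 7.83 and 7.70 at day 2, 5.76, 5.40, 5.35 and 5.98 at day 28, and 5.68, 5.23, 5.35 and 4.75 at day 53, a difference of 2.05 (SE 0.34, adjusted p 0.00383).

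Timp1, an inhibitor of matrix metalloproteinases induced in wounds, was at 3.13, 3.14, 3.21 and 3.19 at day 2 and between 2.20 and 2.26 in all 8 later kidneys, which were at or under the filter value. It was therefore at least 1.86-fold higher at day 2 (adjusted p 2.09e-05), and its size is known only as this bound. Sparc, a collagen-binding matrix protein, was at 11.25, 11.22, 11.38 and 11.53 at day 2 and between 10.05 and 10.80 later, a difference of 0.90 (SE 0.13, adjusted p 0.000615). Meg3, an imprinted long noncoding RNA of stromal and endocrine cells, was at 6.13, 5.40, 7.53 and 6.79 at day 2 and between 4.30 and 4.68 later, a difference of 2.00 (SE 0.39, adjusted p 0.0105), and 1.54 with the fat marker covariate (adjusted p 0.132). Its highest value, 7.53, was in day 2 mouse 4, where the adrenal marker Star was at 8.31. Meg3 was not called without the 3 kidneys with adrenal, pancreas or liver transcripts.

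Fat depots also hold collagen-producing cells. With the fat marker covariate 2 of the 29 matrix genes passed, Timp1 (adjusted p 0.00395) and Sparc (0.86, adjusted p 0.0234), while Col3a1 differed by 1.48 (adjusted p 0.0705) and Col1a1 by 1.42 (adjusted p 0.101). Col3a1 in the day 28 kidneys of mice 5 and 6, which held fat transcripts, was 9.78 and 10.95, both below every day 2 value. Their Adipoq levels, 8.01 and 7.24, were also below every day 2 value of Adipoq. The matrix count was 7 and 6 without day 2 mouse 4 or 5, and 5 without the 3 kidneys that held adrenal, pancreas or liver transcripts.

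**Figure D2:**
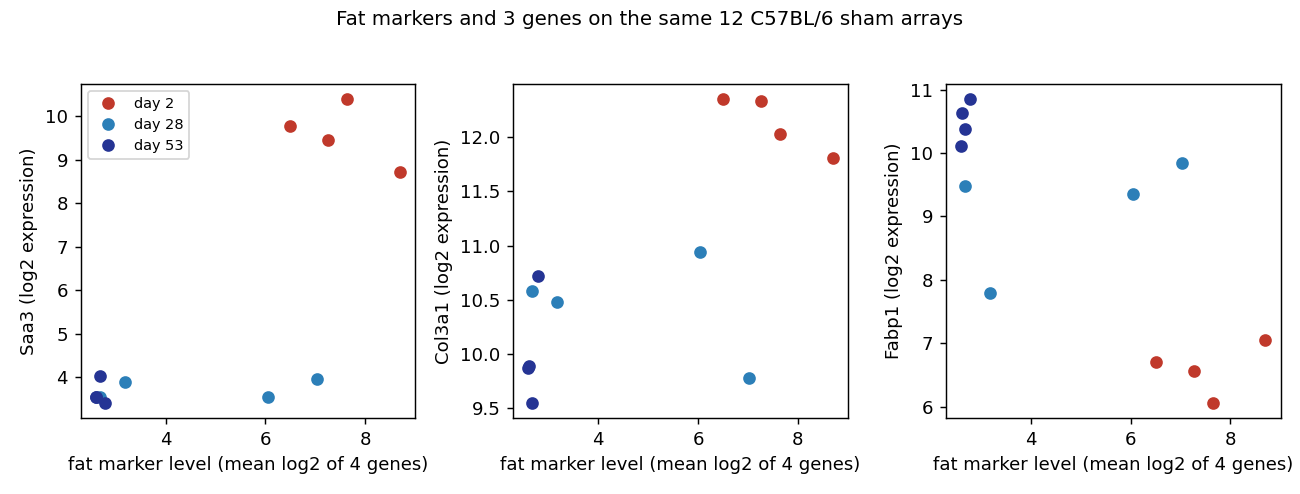
Each point is 1 of the 12 B6 sham arrays, with the mean log2 level of 4 fat marker genes on the horizontal axes and the log2 level of Saa3, Col3a1 or Fabp1 on the vertical axes. The day 28 arrays of mice 5 and 6, with fat marker levels of 7.02 and 6.05, have Saa3 levels of 3.97 and 3.54, below the day 2 arrays. Their Adipoq levels, 8.01 and 7.24, also lie below those of the day 2 arrays.

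Genes of cell division rose at day 2. Of 26 measured cell cycle genes 10 rose, against 1.34% of all genes, and none fell, with a list median of 0.46. The 10 were Mki67, Top2a, Ccnb2, Ccna2, Cdk1, Bub1, Birc5, Kif11, Kif20a and Rrm2. Mki67, a marker of dividing cells, was at 6.13, 6.53, 5.73 and 6.43 at day 2, 4.22, 4.78, 3.25 and 4.30 at day 28, and 6.00, 4.04, 3.29 and 3.56 at day 53. The day 53 kidney of mouse 1 alone reached the day 2 range, and the difference was 2.03 (SE 0.39, adjusted p 0.0105). Cdk1, the kinase that drives entry into mitosis, was at 4.92, 5.34, 4.77 and 6.10 at day 2, 3.63, 3.70, 3.46 and 4.66 at day 28, and 4.88, 3.65, 3.46 and 3.47 at day 53, a difference of 1.42 (SE 0.28, adjusted p 0.0125), with the same day 53 kidney in the day 2 range. Its call was lost without day 2 mouse 5 (adjusted p 0.0708). Bub1, a mitotic checkpoint kinase, was at 2.59, 3.07, 2.71 and 3.58 at day 2 and between 2.20 and 2.59 later, a difference of 0.69 (SE 0.12, adjusted p 0.00491).

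The count of cell cycle genes depended on single kidneys. It was 4 and 2 without day 2 mouse 2 or 5, 5 and 6 without day 53 mouse 5 or 6, and 13 without day 53 mouse 1. Without the 3 kidneys with adrenal, pancreas or liver transcripts the count was 2. Fitting the 12 B6 arrays alone called none of the 26 by limma's adjusted test, although 19 had an unadjusted p under 0.05 in the fit of all sham arrays, against 15.8% of all genes. With the fat marker covariate 1 of 26 passed, Bub1 (0.76, adjusted p 0.0292), and the list median was 0.48. Mki67 then differed by 1.90 (adjusted p 0.0837) and Cdk1 by 1.18 (adjusted p 0.125).

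**Figure D3:**
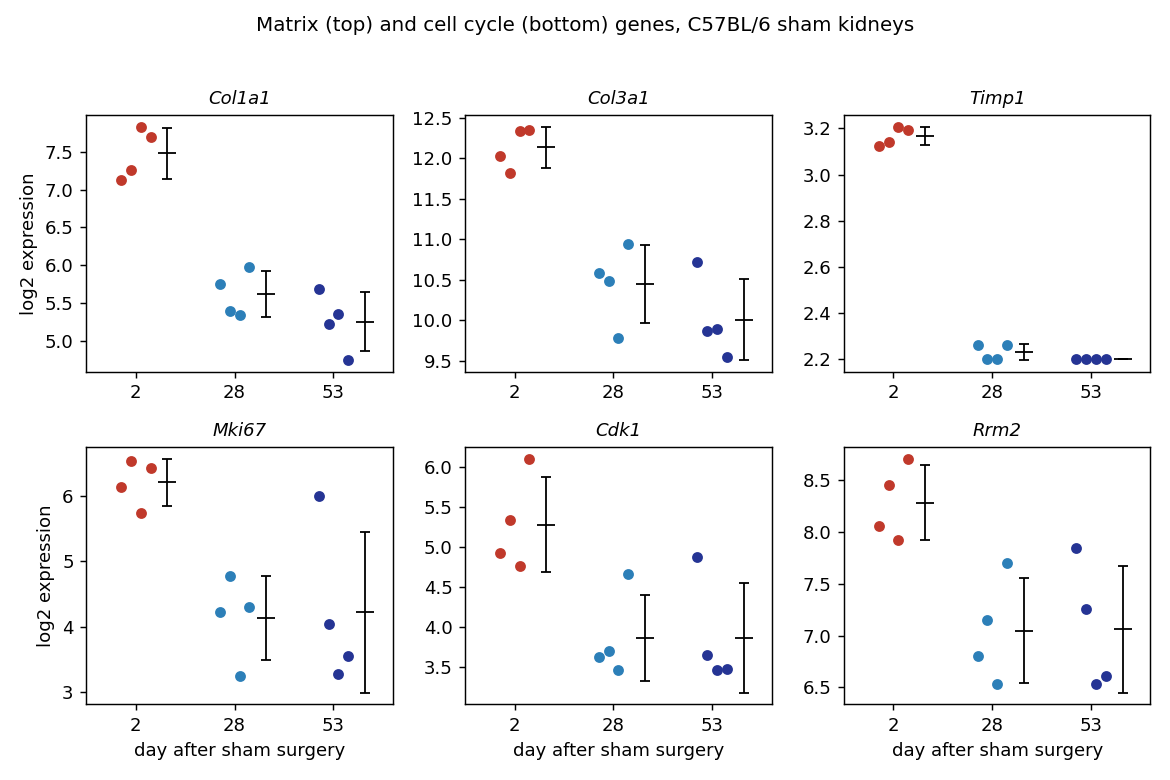
Log2 expression of 3 matrix genes (top) and 3 cell cycle genes (bottom) on each B6 sham array by day after surgery, with the mean ± SD of 4 arrays. Col3a1 at day 2 lies between 11.81 and 12.35, above all later arrays. For Mki67 the day 53 array of mouse 1, at 6.00, lies within the day 2 range.

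Some genes of tubular injury rose at day 2. Of 18 measured injury genes 3 rose, Havcr1, Lcn2 and Timp1, against 1.34% of all genes. Lcn2 and Timp1 are also counted in the acute phase and matrix lists above. The summed injury level averaged 14.74, 14.73 and 14.71 at days 2, 28 and 53. The list median was 0.10, and 4 of the 18 had an unadjusted limma p under 0.05, against 15.8% of all genes. Havcr1, the injury receptor KIM-1 of the proximal tubule, was at 5.75, 5.81, 4.40 and 7.00 at day 2, 2.66, 3.96, 2.65 and 5.37 at day 28, and 4.16, 3.21, 3.23 and 2.58 at day 53. The days overlapped through day 2 mouse 4 and day 28 mouse 6, and the difference was 2.26 (SE 0.51, adjusted p 0.0202). It was no longer called without day 2 mouse 1, 2 or 5 (adjusted p 0.0548, 0.057 and 0.105), and with the fat marker covariate it differed by 1.67 (adjusted p 0.203). The list count was 1 without day 2 mouse 1 or mouse 5.

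Among the genes that fell were several of lipid handling. Of 12 measured PPAR alpha and fasting genes 5 fell (Angptl4, Acot1, Acot2, Cyp4a14 and Ehhadh), against 0.933% of all genes. None rose, and the list median was -0.35. The largest fall of the 118 lower genes was that of Fabp1, the fatty acid binding protein of liver and proximal tubule. It was at 6.06, 7.05, 6.56 and 6.71 at day 2, 9.48, 7.79, 9.84 and 9.35 at day 28, and 10.85, 10.12, 10.62 and 10.38 at day 53. No day 2 value reached a later one, and the difference was -3.21 (SE 0.48, adjusted p 0.00138). Set against single days it was -2.52 against day 28 (adjusted p 0.0485) and -3.90 against day 53 (adjusted p 0.000931). Liver also expresses Fabp1. Of 9 measured liver markers 1 rose at day 2, Serpina1b (2.16, SE 0.49, adjusted p 0.0219), and 1 fell, Fabp1 itself, and the summed liver level ran between 13.5 and 14.1 at day 2, 13.7 and 14.5 at day 28, and 13.8 and 14.5 at day 53. Serpina1b lost its call without day 2 mouse 1 (adjusted p 0.0683) or mouse 5 (0.098). Apoa1 lay at 2.20 in all 4 day 2 kidneys and between 2.20 and 2.50 in 7 of the 8 later ones. In day 53 mouse 3, the exception with Apoa1 at 4.38, Fabp1 was 10.12, the lowest of the day 53 values. The part of liver tissue in the Fabp1 difference was not tested.

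Acot1, a cytosolic thioesterase that releases fatty acids from coenzyme A, was at 10.03, 10.49, 10.24 and 10.02 at day 2, 11.20, 10.72, 10.94 and 10.55 at day 28, and 11.50, 11.30, 11.52 and 11.58 at day 53, a difference of -0.97 (SE 0.12, adjusted p 0.000257). Ehhadh, the peroxisomal bifunctional enzyme of fatty acid oxidation, was at 12.61, 12.82, 12.62 and 12.81 at day 2, 13.33, 13.21, 13.25 and 12.88 at day 28, and 13.39, 13.28, 13.58 and 13.64 at day 53, a difference of -0.60 (SE 0.12, adjusted p 0.0097). Neither gene overlapped between the day 2 and later kidneys. Angptl4, a secreted inhibitor of lipoprotein lipase induced by fasting, differed by -1.62 (SE 0.39, adjusted p 0.0326) with overlap at day 28 mouse 3, and lost its call without any one of 7 kidneys, at adjusted p values up to 0.0927, and differed by -2.40 with the fat marker covariate (adjusted p 0.0206).

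Fabp1 in the day 28 kidneys of mice 5 and 6, which held fat transcripts, was 9.84 and 9.35, and the covariate fit gave -3.98 (adjusted p 0.00477). Acot1 was then -0.86 (adjusted p 0.02) and Ehhadh -0.47 (adjusted p 0.125), and 2 of the 12 list genes passed. The list count was 2 without day 2 mouse 1, 4 or 5 or day 28 mouse 5, and 3 without day 2 mouse 2, day 28 mouse 1 or day 53 mouse 3, 5 or 6. It was 1 without the 3 kidneys with adrenal, pancreas or liver transcripts.

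Enzymes of xenobiotic metabolism also fell. Of 23 measured cytochrome P450 and drug metabolism genes 4 fell (Cyp2d12, Cyp2d26, Gsta3 and Gsta4), against 0.933% of all genes. None rose, but the list median was only -0.017. Gsta3, a glutathione transferase, was at 10.17, 10.27, 10.38 and 10.29 at day 2, 11.07, 10.61, 11.17 and 11.07 at day 28, and 10.80, 10.90, 11.26 and 10.79 at day 53, a difference of -0.68 (SE 0.11, adjusted p 0.0034). Gsta4, which detoxifies lipid peroxidation products, differed by -0.71 (SE 0.14, adjusted p 0.0107), and Cyp2d26 by -0.54 (SE 0.10, adjusted p 0.00654), both without overlap. Cyp4b1, a fatty acid and xenobiotic hydroxylase, was at 10.52, 11.71, 11.12 and 10.83 at day 2, 11.97, 11.61, 12.53 and 12.84 at day 28, and 12.21, 12.14, 12.63 and 12.33 at day 53, a difference of -1.24 (SE 0.21, adjusted p 0.00414). Day 2 mouse 2 lay above day 28 mouse 3, the only overlap of the days. In the covariate fit Gsta3 differed by -0.69 (adjusted p 0.0358), Gsta4 by -0.86 (adjusted p 0.0288), Cyp2d26 by -0.65 (adjusted p 0.0221) and Cyp4b1 by -1.54 (adjusted p 0.0149).

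Close relatives share sequence in these families, so a probe set for one Cyp2d, Gsta, Acot or lysozyme gene may also read its neighbours. Azgp1, a lipid-mobilising glycoprotein, fell by 1.91 (SE 0.36, adjusted p 0.00789) without overlap, with 3.50, 3.61, 3.64 and 3.97 at day 2, 4.84, 5.49, 5.86 and 4.80 at day 28, and 4.76, 6.80, 6.49 and 5.67 at day 53. Vnn1, the pantetheinase that recycles vitamin B5 and a PPAR alpha target, fell by 0.80 (SE 0.16, adjusted p 0.0125), also without overlap. In the covariate fit Azgp1 differed by -2.11 (adjusted p 0.041) and Vnn1 by -0.85 (adjusted p 0.0655).

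Some rapid-response genes were lower at day 2 than later. Of 20 measured immediate early genes 4 fell (Ier3, Zfp36, Klf2 and Dusp1) and none rose, with a list median of -0.22. Of all genes, 0.933% fell. An unadjusted limma p under 0.05 was found for 4 of the 20, against 15.8% of all genes. In FVB 1 of the 20 fell, with a list median of 0.04. Ccn2, the matricellular growth factor CTGF, was at 11.63, 11.30, 11.22 and 11.01 at day 2, 12.14, 11.90, 12.25 and 12.47 at day 28, and 12.34, 12.07, 12.37 and 11.93 at day 53. The days did not overlap, and the difference of -0.89 (SE 0.11, adjusted p 0.000113) was near the same size against day 28 (-0.90) and day 53 (-0.89). Ier3, an immediate early regulator of cell survival, was at 10.10, 9.89, 10.07 and 10.20 at day 2, 11.30, 10.85, 10.88 and 10.98 at day 28, and 10.70, 10.53, 10.70 and 11.02 at day 53, a difference of -0.81 (SE 0.13, adjusted p 0.0034).

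Dusp1, a phosphatase that ends stress kinase signalling and a glucocorticoid target, was at 10.26, 10.44, 10.62 and 9.99 at day 2, 11.03, 10.65, 11.20 and 11.61 at day 28, and 11.17, 11.02, 11.00 and 11.61 at day 53, a difference of -0.84 (SE 0.20, adjusted p 0.0266). It was not called without day 2 mouse 1, 2 or 5 (adjusted p 0.077, 0.0523 and 0.117). Of 15 measured glucocorticoid-responsive genes 3 fell (Dusp1, Sgk1 and Klf15), 1 rose (Lcn2), and the list median was -0.39. Of all genes 0.933% fell and 1.34% rose. With the fat marker covariate all 4 immediate early genes were called, Dusp1 at -1.39 (adjusted p 0.00301) and Ier3 at -0.89 (adjusted p 0.0241), and Ccn2 stood at -1.07 (adjusted p 0.000976). The immediate early count was 1 without day 2 mouse 5, and 2 without any other day 2 kidney, day 28 mouse 5 or 6, or day 53 mouse 3, 5 or 6. The number of glucocorticoid genes that fell was 0 without day 2 mouse 2 or 5, and 1 without day 2 mouse 1 or 4, day 28 mouse 5 or 6, or day 53 mouse 3 or 5. The immediate early count was 0 when all 48 arrays were fitted together, and 1 without the 3 kidneys with adrenal, pancreas or liver transcripts. Without those 3 kidneys the number of glucocorticoid genes that fell was 0.

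**Figure D4:**
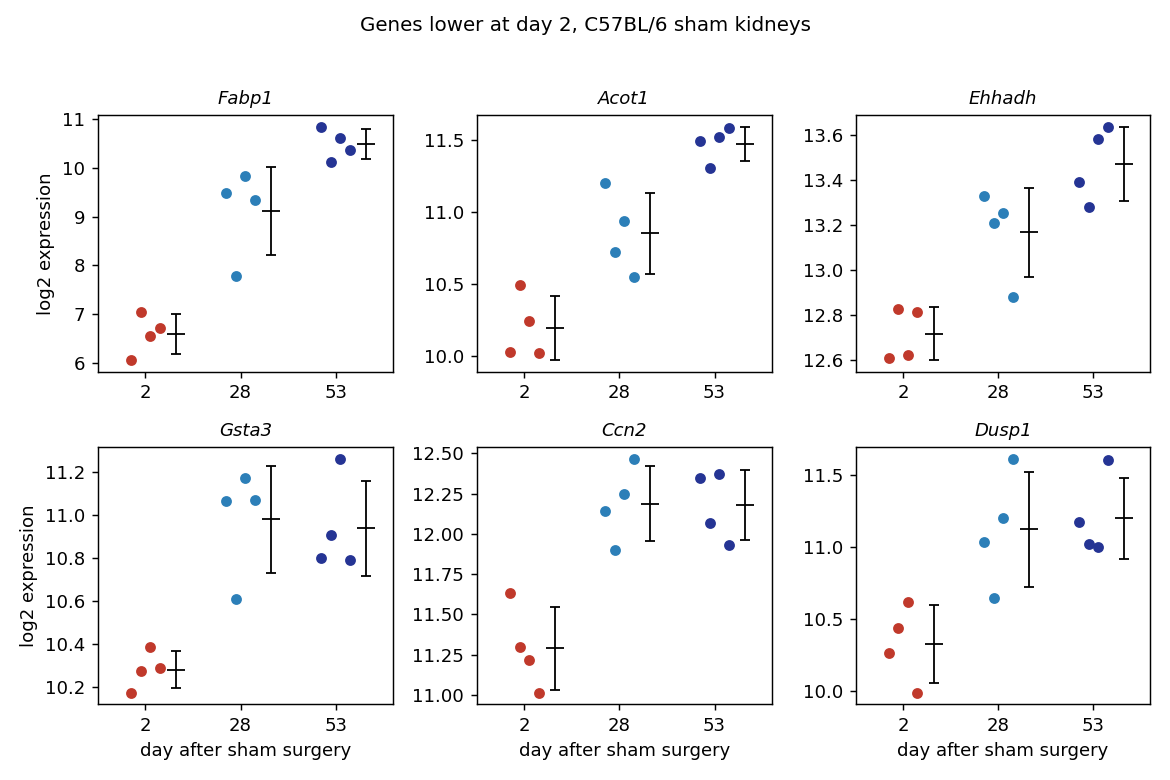
Log2 expression of 6 genes lower at day 2 on each B6 sham array by day after surgery, with the mean ± SD of 4 arrays. Fabp1 averages 6.59, 9.12 and 10.49 at days 2, 28 and 53, whereas Ccn2 averages 11.29, 12.19 and 12.18.

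Many gene programmes of the kidney showed no called gene at day 2. The counts in brackets are genes with an unadjusted p under 0.05, which 15.8% of all genes had. The limma test passed 0 of 29 proximal tubule transport genes (5), 0 of 17 loop and distal tubule genes (7), 0 of 11 podocyte genes (4) and 0 of 16 endothelial genes (2). It passed 0 of 31 oxidative phosphorylation genes (13), 0 of 19 hypoxia genes (9) and 0 of 23 heat shock and unfolded protein genes (5). For the growth hormone and IGF axis it passed 0 of 20 (5), for senescence and p53 0 of 12 (2), for renin and vascular smooth muscle 0 of 10 (2), and for the circadian clock 0 of 18 (4). The medians of these 11 lists lay between -0.105 and 0.108. Among 22 collecting duct genes 2 fell and 1 rose (6). Among 19 cholesterol and lipid synthesis genes 1 fell (3), and among 13 Nrf2 targets 1 fell (6). Of all genes tested, 0.933% fell and 1.34% rose.

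Day 2 was also set against each later day. Against day 28 alone 71 genes were called (0.561%), 37 higher (0.292%) and 34 lower (0.269%), and against day 53 alone 194 (1.53%), 108 higher (0.854%) and 86 lower (0.68%). These comparisons share the day 2 kidneys, so they are given side by side. Saa3 differed by 5.85 against day 28 (adjusted p 0.000338) and by 5.96 against day 53 (adjusted p 0.00017), whereas Acot1 differed by -0.66 against day 28 (adjusted p 0.0463) and by -1.28 against day 53 (adjusted p 9.19e-05). The count against day 28 was 29, 30, 16 and 14 without day 2 mouse 1, 2, 4 or 5, 13 and 30 without day 28 mouse 5 or 6, and 44, 44 and 41 without day 53 mouse 3, 5 or 6. The count against day 53 was 127 and 81 without day 2 mouse 4 or 5, and 308, 121, 53 and 123 without day 53 mouse 1, 3, 5 or 6.

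Between the later days almost nothing was called. Day 53 differed from day 28 in 1 of 12650 genes (0.00791%), and 633 genes (5%) had an unadjusted p under 0.05. The gene was Trim16, a ubiquitin ligase of the stress response, at 3.59, 3.68, 3.59 and 3.59 at day 53 and 4.42, 3.98, 4.05 and 4.21 at day 28, without overlap, a difference of -0.55 (SE 0.09, adjusted p 0.0489). Its call was lost without any one of 8 kidneys. The count ran between 0 and 11 when single kidneys were left out, with 11 without day 28 mouse 3, 3 without day 28 mouse 5, 2 without day 28 mouse 1, and 0 without day 2 mouse 2 or 4, day 28 mouse 6, or day 53 mouse 1, 5 or 6. Fabp1 averaged 10.49 at day 53 and 9.12 at day 28, a difference of 1.38 (SE 0.56, adjusted p 0.925).

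The FVB sham kidneys, which share no array with B6, gave the same contrast in 751 genes (5.94%), 422 higher (3.34%) and 329 lower (2.6%). Of the 170 genes higher in B6, 62 were called higher in FVB, which is 36.5% of the B6 list and 14.7% of the FVB list, and 151 (88.8%) had the same sign. Of the 118 lower in B6, 32 were called lower in FVB, 27.1% of the B6 list and 9.73% of the FVB list, and 100 (84.7%) had the same sign. Over all genes tested 46% had a positive difference in FVB. Of the 118, 1 was called in the opposite direction in FVB, Serpinf2, the plasmin inhibitor alpha 2-antiplasmin, with -0.39 in B6 and 0.32 in FVB, named after its values were seen. The genes called in B6 had median differences in FVB of 0.31 for the higher and -0.17 for the lower. They were picked by their B6 calls, so a smaller median in FVB is partly built in. It does not compare the size of the response between strains. Of the 422 genes higher in FVB 357 had the same sign in B6, and of the 329 lower 279 did. By list, 16 of 26 cell cycle, 9 of 23 macrophage and 8 of 29 matrix genes rose in FVB. Of 23 cytochrome P450 and drug metabolism genes 4 fell there and 1 rose. None was called in FVB among 18 acute phase, 12 PPAR alpha and fasting, 15 glucocorticoid, 18 injury and 8 white fat genes. A call in 1 strain only is not a strain difference. The test of that difference passed for 1 acute phase and 1 injury gene, and for 0 PPAR alpha, 0 glucocorticoid and 0 white fat genes. The median of the white fat list in FVB was 1.2. Col3a1 differed by 1.90 in B6 and 1.60 in FVB (adjusted p 0.00388 in FVB), Mki67 by 2.03 in B6 and 2.84 in FVB (adjusted p 0.000263 in FVB), and Fabp1 by -3.21 in B6 and -2.01 in FVB (adjusted p 0.0161 in FVB). The fat marker level in FVB ran between 4.97 and 9.21 at day 2 and between 2.50 and 7.90 later, so fat transcripts varied within both strains.

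The strains differed in the contrast itself for 38 genes (0.3%), 14 more positive in B6 (0.111%) and 24 more negative (0.19%). MHC class II genes were among them: 0 of 9 changed in B6 and 8 of 9 rose in FVB, and the strain test passed for 4 of 9. H2-Ab1, the beta chain of the class II molecule I-A, was at 10.11, 10.07, 9.89 and 10.45 in B6 at day 2 and between 9.81 and 10.62 in B6 later, and at 10.72, 11.71, 12.43 and 10.90 in FVB at day 2 and between 8.80 and 9.74 in FVB later. The B6 kidneys overlapped between days and the FVB kidneys did not, with a strain difference of -2.11 (SE 0.34, adjusted p 0.00546). Cxcl9 differed by -0.45 in B6 and 2.31 in FVB, a strain difference of -2.76 (adjusted p 0.0178) that was lost without B6 day 2 mouse 1 or 4 (adjusted p up to 0.0545).

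The clock output gene Dbp, a transcription factor with a strong daily rhythm, was at 12.51, 12.51, 12.78 and 12.94 in B6 at day 2 and between 11.99 and 13.11 in B6 later. In FVB it was at 11.08, 11.94, 11.49 and 12.09 at day 2 and between 12.88 and 13.64 later, and the strain difference was 1.73 (SE 0.22, adjusted p 0.00068). Nfil3, which represses the same target sites, differed by -0.64 in B6 and 1.38 in FVB, a strain difference of -2.02 (adjusted p 0.0264) that was lost without B6 day 2 mouse 1, 4 or 5 (adjusted p up to 0.0745). The labels give no hour of collection, and its part in these values was not tested. Saa3 differed by 5.91 in B6 and 1.58 in FVB, where day 2 mouse 5 was at 8.72 and the other FVB day 2 kidneys were between 3.54 and 4.69. That kidney had the highest fat marker level of the 24 sham arrays, 9.21, and the other FVB day 2 kidneys were at 4.97, 6.86 and 7.39. The part of fat tissue in its Saa3 level was not tested. The strain difference of Saa3 was 4.33 (SE 0.86, adjusted p 0.0301) and was lost without any one of 6 B6 kidneys (adjusted p up to 0.0866) and with the fat marker covariate (3.92, adjusted p 0.0566). Timp1 was between 3.13 and 3.21 in B6 at day 2 and at 2.20, 2.20, 2.20 and 2.97 in FVB at day 2, with every later kidney of both strains near the lowest value. The strain test passed (adjusted p 0.00965), but with those kidneys at the floor the size of the difference is not known. The count of 38 fell to 24, 16 and 24 without B6 day 2 mouse 1, 4 or 5.

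**Figure D5:**
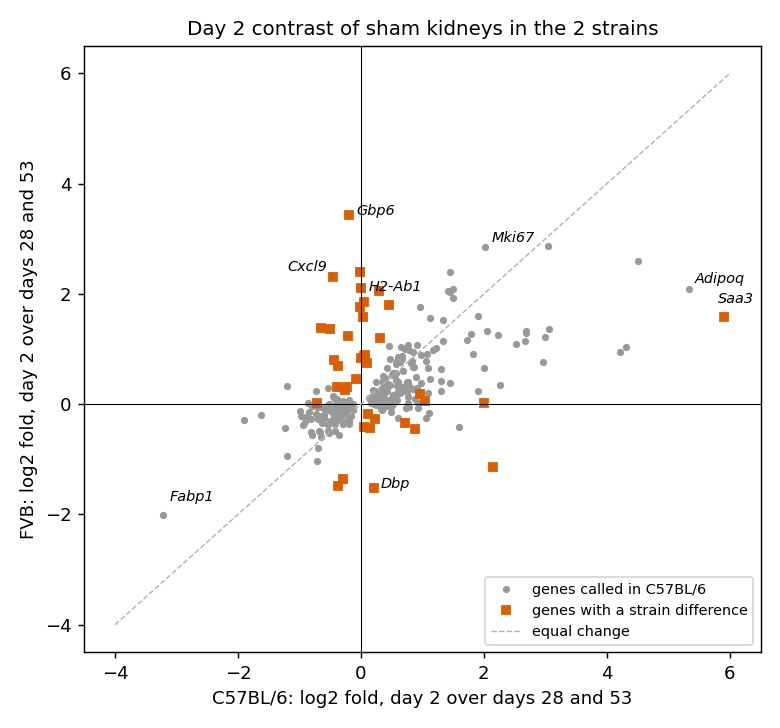
Log2 fold change of day 2 over days 28 and 53 in B6 sham kidneys (horizontal axis) and FVB sham kidneys (vertical axis), for the 288 genes called in B6 (grey circles) and the 38 genes with a strain difference (orange squares). Saa3 lies at 5.91 in B6 and 1.58 in FVB, and H2-Ab1 lies near 0 in B6 and at 2.11 in FVB.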

How the data were processed

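Whole-kidney RNA of 48 mice was hybridised to Affymetrix arrays, of which the 24 sham arrays are used here. The authors deposited 1 table of log2 expression values for 45101 probe sets, and the log2 scale was read from the values. MAS5 is named in the submitters' processing notes with no role, and the background correction, normalization and software versions are not given in the sources used here. Probe sets were named through the platform annotation, with symbols updated by gene ID through RefSeq, and 34958 had 1 symbol, 932 several and 9211 were not listed. Probe sets above 2.27 (the 40th percentile of sham values) on at least 4 sham arrays were kept, and the brightest stood for its gene, which left 12650 genes.

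R 4.3.3 and limma 3.58.1 fitted 1 mean for each of 6 groups of 4 sham arrays (strain by day) with an intensity trend, on 18 residual degrees of freedom. Tests were two-sided with Benjamini-Hochberg adjustment over all genes and a threshold of 0.05. Measures of array quality had exact permutation tests of 4 against 8 arrays, whose smallest p is 0.00202. The labels number the mice but do not say more about how the samples arose. The fit was tested on simulated data with known changes. No pair of arrays held identical values. Alternatives changed the arrays in the fit, normalization, filter, probe set rule, spread model, mouse number as a block and single arrays. The fat marker covariate and 2 sets of left-out arrays were chosen after seeing the data.

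The comparison, the 39 gene lists and the promoter motifs were chosen with earlier results of these data known. Named genes are the 12 highest and 12 lowest called genes without overlap, up to 4 of smallest p per list, and the 5 highest and lowest of the other contrasts, of which some are left out here. Other genes are listed as members of a list or said to be picked after their values were seen. The number of arrays limits the precision.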

Additional observations from a re-analysis of the deposited data

Results flagged for a closer look

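Among 216 sets of 4 arrays (genes or array measures in 1 group) 26 held an array far from the other 3, and chance gives about 1 in 20. At day 2, mouse 2 was low for Ccl8 (4.41, others 6.03 to 6.21) and Lyz2 (10.28, others 10.93 to 11.05) and high for Cyp4a14 (13.12, others 12.62 to 12.67). Mouse 5 at day 2 was low for Hsd17b2 (4.21, others 4.39 to 4.40) and slightly high for Clps (2.39, others 2.20). The adrenal marker Star was at 8.31 in day 2 mouse 4, against 2.92 to 3.21 in the others. At day 28, mouse 1 was high for the pancreas genes Prss2 (8.54, others 2.89 to 3.45) and Clps (8.18, others 2.20 to 2.37) and for the BioB spike-in (9.27, others 8.79 to 8.81). Mouse 6 at day 28 was high for Ccl6 (6.73, others 6.10 to 6.12), Ccl8 (3.45, others 2.57 to 2.67), Bub1 (2.59, others 2.30) and Retn (4.50, others 4.45). Mouse 5 at day 28 was high for Star (3.47, others 3.39) and Apoa1 (2.50, others 2.20).

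At day 53, mouse 1 was high for Hp (3.04, others 2.50), Ccl9 (5.52, others 3.09 to 3.16), Bub1 (2.32, others 2.20) and Cdk1 (4.88, others 3.46 to 3.65). Mouse 3 at day 53 was low for Pf4 (3.76, others 4.28 to 4.38) and high for Serpina1b (5.31, others 2.74 to 2.89), Apoa1 (4.38, others 2.20 to 2.24) and Trim16 (3.68, others 3.59). Mouse 6 at day 53 was high for Ccl8 (2.86, others 2.61 to 2.65) and Clps (2.28, others 2.20), and mouse 5 for Cilp (2.54, others 2.31). Many of these gaps are small and lie near the lowest value of the arrays.

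The day 2 contrast differed between B6 and FVB, by the test of the difference itself, for 11 named genes. It was more positive in B6 for Saa3 (4.33), Serpina1b (3.30), Cilp (1.98), Dbp (1.73), Nat8f3 (1.33) and Timp1 (0.77, a fitted value whose later kidneys lie at the floor in both strains). It was more negative in B6 for Gbp6 (-3.63), Cxcl9 (-2.76), H2-DMa (-2.41), H2-Ab1 (-2.11) and Nfil3 (-2.02). The calls of Gbp6, H2-DMa, Serpina1b and Nat8f3 were lost without any one of 12, 10, 10 and 8 B6 kidneys, with adjusted p values up to 0.143, 0.117, 0.113 and 0.104.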

How the results depend on the processing

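Of up to 66 called values of named genes, none changed direction under an alternative, and values that were not called were not followed. The 288 B6 genes (day 2 against days 28 and 53) became 161 with the 12 B6 arrays alone, 106 with all 48 arrays in 1 fit, 187 with no filter on low values, 776 with array weights, 127 with the fat marker covariate, 167 without the 2 day 28 arrays with fat markers, and 67 without the 3 arrays with adrenal, pancreas or liver markers. The 71 genes against day 28 became 46 with the B6 arrays alone, 31 with all 48 arrays, 21 with no filter, 44 without the intensity trend, 2 without the 2 day 28 arrays and 5 without the 3 arrays. The 194 genes against day 53 became 72 with all 48 arrays, 122 with no filter, 930 with array weights, 70 with the covariate and 55 without the 3 arrays. The single gene between days 53 and 28 became 2 with the B6 arrays alone, all 48 arrays or no filter, and 0 with quantile normalization, a common median, the stricter filter, the covariate or without the 2 day 28 arrays. The FVB count of 751 became 474 with all 48 arrays, and the strain difference count of 38 became 17 with no filter and 8 without the 3 arrays. Leaving out each of the 12 B6 arrays in turn gave 92 to 445 genes for B6, 13 to 104 against day 28, 53 to 308 against day 53, 0 to 11 between days 53 and 28, 686 to 830 in FVB and 16 to 40 for the strain difference. Mice of different days are different animals, and same-numbered arrays deviated together with correlations of -0.03 to 0.20 over 8 pairs, so mouse numbers do not pair the samples. With mouse number as a replicate block the 6 counts were 31, 14, 24, 0, 224 and 9. Of 66 called values of named genes, 30 kept their call with the fat marker covariate and 23 without the 3 arrays. The cause of these shifts was not tested, and levels near the lowest value limit what folds can show.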
